A study of Mus musculus with 4 samples.

Results

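The 9 genes described here encode the core of mTOR complex 1 (mTORC1) and the proteins that hold it back under stress: Mtor, Rptor, Rheb, Tsc1, Tsc2, Ddit4, Sesn1, Sesn2 and Sesn3. They were taken by name from a list of mTORC1 components and inhibitors, are 9 of the 24062 genes in the deposited table, and all 9 passed the filter on low counts that left 11271 genes for testing. RNA was sequenced from gBT-I cells, transgenic CD8+ T cells that recognise a herpes simplex virus glycoprotein B peptide, sorted from the spleen on day 7 after transfer into mice. One group of C57BL/6 recipients was germ free (GF, without a microbiota; 2 libraries) and the other specific pathogen free (SPF, with a microbiota; 2 libraries). The cells of both groups came from SPF gBT-I donor mice, were activated in culture with the gB peptide and LPS, were given IL-1 during culture according to the labels, and were injected into a vein on day 4. The question the comparison addresses is how the transcripts of activated CD8+ T cells differ between hosts with and without a microbiota. All cells carry the same transgenic receptor, and neither recipient age nor whether a library pools mice is given in the labels.

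mTORC1 is a kinase complex that couples growth factor and nutrient signals to protein, lipid and nucleotide synthesis, and in CD8+ T cells its activity favours effector over memory differentiation. Its catalytic subunit is the kinase mTOR, its scaffold is Raptor (Rptor), and it is switched on at the lysosome by the GTP-bound form of the small GTPase Rheb. The TSC1-TSC2 complex returns Rheb to its inactive state. DDIT4, also called REDD1, is induced by hypoxia, glucocorticoids and other stresses and inhibits mTORC1 through the TSC complex, while the sestrins inhibit it through the GATOR2 complex, with Sestrin2 acting as a leucine sensor. Activity of the complex is set largely by phosphorylation, nucleotide state and location of these proteins, none of which was measured by sequencing RNA.

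Ddit4 was the one member whose GF libraries both exceeded both SPF libraries, beside 16.8% of tested genes. Its fitted level in GF was 2.26-fold that in SPF recipients. The transcripts of Mtor, Rptor, Tsc1, Tsc2, Sesn2 and Sesn3 had higher mean values in GF, and those of Rheb and Sesn1 lower ones, but their libraries overlapped between the groups. With p-values adjusted by Benjamini-Hochberg over the whole table, none of the 9 passed edgeR's quasi-likelihood test without covariates, beside 0% of all 11271 genes called. Ddit4 alone had an unadjusted p under 0.05, beside 363 tested genes (3.22%). DESeq2 and the edgeR exact test each called 9 genes (0.0799%) and limma-voom 0, with no member among them. With 2 libraries in each group, the smallest two-sided p of an exact permutation test is 0.33. The fits above leave out the replicate number, and the calls depended on this choice. The fit with that number as a block is given in the closing section.

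Total counts were 14219354 and 14431533 in GF replicates 1 and 2, and 11544960 and 14026051 in SPF replicates 1 and 2. Replicates of a group differed by more than sampling noise, with a chi-square per degree of freedom of 43.9 in GF and 89.2 in SPF. Nothing in the labels says that replicates came from separate mice, so the p-values rest on the spread between libraries, which may be technical. The CD8 marker gene Cd8a had 991 and 940 CPM (counts scaled to library size with TMM factors) in GF and 932 and 790 CPM in SPF. Of the 8 CD8 marker genes, 3 had higher and 5 lower fitted values in GF. Both GF libraries were higher for 1, Cd8a, beside 16.8% of tested genes. Summed over 14 B cell markers, the libraries had 145 and 31.8 CPM in GF and 122 and 28.9 CPM in SPF, so B cell transcripts followed the replicate number. Summed CPM of the other marker lists ran from 5907 to 6079 in GF and 5946 to 6629 in SPF for CD8 T cells and from 43.0 to 49.3 in GF and 61.3 to 79.5 in SPF for NK cells, of which Klra4 and Klra8 were at 0. Macrophage and monocyte markers summed to between 7.63 and 11.4 CPM in all 4 libraries, but genes within the list went opposite ways. Cd68 had 4.10 and 10.8 CPM in GF and 3.49 and 6.43 CPM in SPF, higher in the libraries numbered 2. Lyz2 had 65 and 0 counts in GF and 48 and 8 in SPF, higher in those numbered 1. The sums ran from 66.4 to 89.2 in GF and 100 to 108 in SPF for CD4 T cells. These were mostly Zbtb7b and Cd40lg, while Cd4 itself had 5 and 1 counts in GF and 6 and 0 in SPF. The NK sums were mostly Klrb1c and Eomes, while Ncr1 had 2 and 1 counts in GF and 3 and 0 in SPF. Whether these sums reflect NK or CD4 T cells was not tested. For red cells and neutrophils the sums were 0.82 to 1.29 in GF and 0.85 to 2.36 in SPF. For dendritic cells they were 760 to 1019 in GF and 401 to 704 in SPF, mostly Itgax, which activated CD8 T cells also express. Differences between libraries also followed transcript length: the difference of replicate 2 minus 1 correlated with exonic length at a Spearman's rho of 0.52 in GF and 0.57 in SPF, across 11194 genes that share their libraries. In bulk samples, fewer cells of a type and less RNA per cell cannot be told apart.

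**Figure D1:**
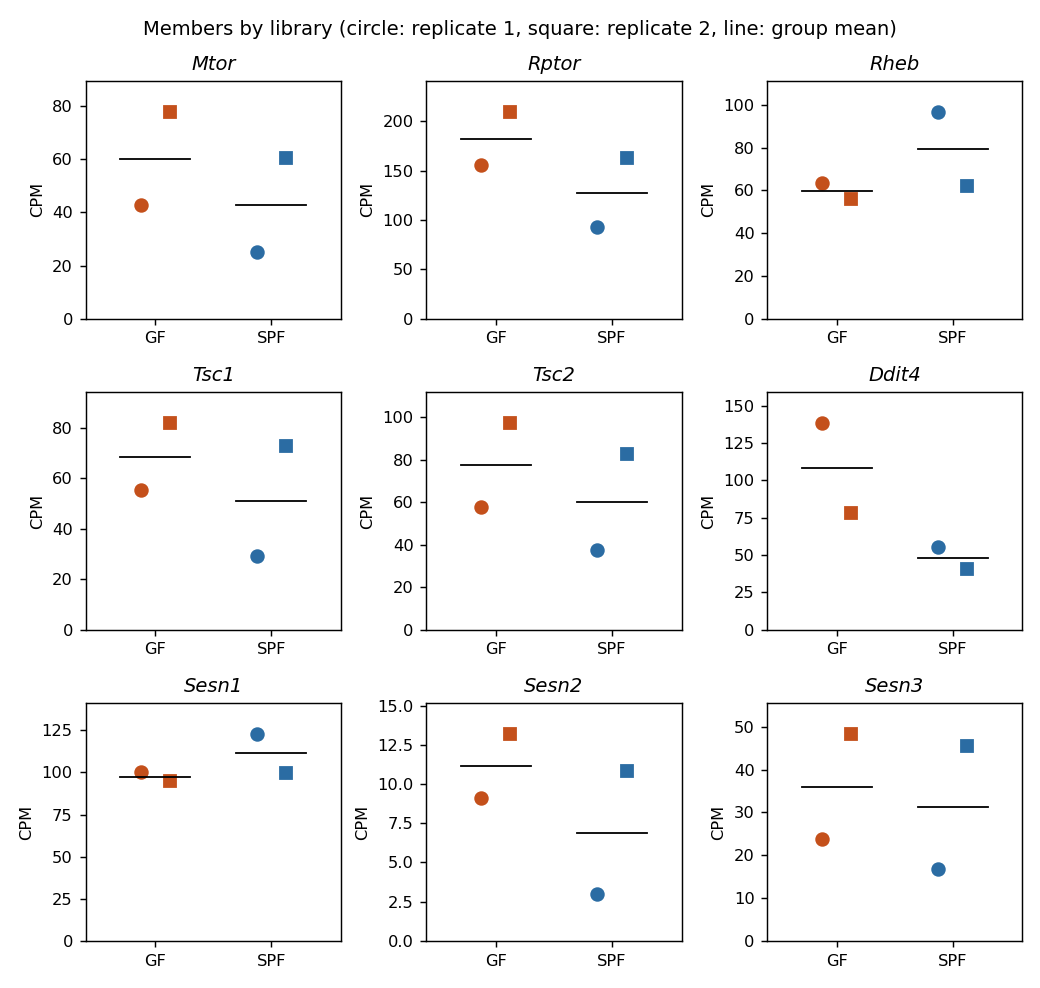
CPM of each member in the 4 libraries, GF left of SPF, with circles for replicate 1, squares for replicate 2 and a line at the group mean, on axes that start at 0. Ddit4 is the panel where both GF points, at 138 and 78.4 CPM, lie above both SPF points, at 55.4 and 40.8 CPM.

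Ddit4 had 2025 and 1096 counts in GF replicates 1 and 2, and 634 and 577 counts in SPF replicates 1 and 2. Scaled to library size these were 138 and 78.4 CPM in GF and 55.4 and 40.8 CPM in SPF, or 108 ± 42.4 CPM in GF and 48.1 ± 10.3 CPM in SPF (SD, n = 2 each). GF replicate 1 stood highest, and the lower GF library still exceeded the higher SPF library. The log2 fold change was 1.17 (SE 0.35, unadjusted p = 0.018, edgeR quasi-likelihood adjusted p = 0.86), 185th from the top of the 11271 tested genes by fold change and 103rd by p. Both GF libraries lay above both SPF libraries for 16.8% of tested genes.

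The difference in Ddit4 ran against the length trend. Its exons span 1755 nt, shorter than the median of 3216 nt over tested genes, and at that length the trend lowered GF relative to SPF. Replicate 1 of GF exceeded replicate 1 of SPF by 1.32 on the log2 CPM scale, where the trend at that length was -0.24, and replicate 2 of GF exceeded replicate 2 of SPF by 0.94, where the trend was -0.09. With the trend removed, the log2 fold change was 1.33 (SE 0.23), and the quasi-likelihood adjusted p was 0.70 without covariates. With the replicate number as a block Ddit4 did pass, with and without removal of the trend, as the closing section gives. Ddit4 passed the quasi-likelihood test when either SPF library was left out, with adjusted p = 0.017 without SPF replicate 1 (log2 fold change 1.41) and 0.034 without SPF replicate 2 (0.96). It did not pass without GF replicate 1, where the log2 fold change was 0.70 and the adjusted p 0.99, or without GF replicate 2, where they were 1.52 and 1.00. B cell markers and Lyz2 were higher in the libraries numbered 1, and so was Ddit4 within each group. The part of these markers in the Ddit4 values was not tested.

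Ddit4 is a compact gene with 3 exons on the minus strand of chromosome 10 (mm10, 59949669 to 59951834). The stretch before its start is shown because Ddit4 had the largest fold change of the 9, and that of Sesn2, another gene induced by stress, is set beside it. Both are given 5′ to 3′ on the minus strand, from RefSeq's GRCm38.p6 windows, and end before the outermost start of the gene in GENCODE. Capitals mark ACGTG, the core of sites bound by hypoxia-inducible factors, which the Sesn2 stretch does not hold.
Ddit4, chr10:59951835-59952020: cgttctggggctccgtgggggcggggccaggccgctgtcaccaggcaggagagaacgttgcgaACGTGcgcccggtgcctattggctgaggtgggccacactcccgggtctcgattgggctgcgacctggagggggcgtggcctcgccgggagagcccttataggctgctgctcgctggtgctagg
Sesn2, chr4:132510502-132510706: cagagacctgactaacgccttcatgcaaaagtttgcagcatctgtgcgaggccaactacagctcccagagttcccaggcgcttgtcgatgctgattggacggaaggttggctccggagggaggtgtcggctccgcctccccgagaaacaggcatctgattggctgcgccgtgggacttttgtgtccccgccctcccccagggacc

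In windows from 250 bases before to 50 after a RefSeq start, ACGTG on either strand was found in 3 of the 9 members, Ddit4, Rheb and Rptor, and in 19.6% of all 32851 windows. In Ddit4 it began 187 bases before the start, and Rheb held it on both strands in overlapping positions, at 96 and 95 bases before the start. The FOXO core TGTTTAC was found in 1 of the 9 members, Sesn1, in 1 of its RefSeq windows and 23 bases after the start, and in 3.65% of all windows. TGATGNAA, the core of the composite element bound by ATF4, was found in 0 members and in 3.97% of all windows. Sesn1 had 2 windows and each other member 1. A match describes these letters only.

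No sestrin gene separated the groups. Sesn1, known as a target of p53, was the most abundant sestrin and the steadiest member, with 100 and 94.8 CPM in GF and 123 and 99.9 CPM in SPF. SPF replicate 1 stood above the other 3 libraries, which lay close together. Its log2 fold change was -0.19 (SE 0.21, edgeR quasi-likelihood adjusted p = 0.86).

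Sesn2, which senses leucine and is induced by ATF4 and p53, was the least abundant member, with 133 and 184 counts in GF and 34 and 153 counts in SPF. These were 9.09 and 13.2 CPM in GF and 2.97 and 10.8 CPM in SPF. SPF replicate 1 stood apart from the other 3 libraries, and GF replicate 1 lay below SPF replicate 2. Within SPF, replicate 2 exceeded replicate 1 by 1.81 on the log2 CPM scale, where the length trend at its 3475 nt was 0.06. The log2 fold change between groups was 0.68 (SE 0.63, adjusted p = 0.86 by the quasi-likelihood test), and it was 0.04 without SPF replicate 1 and 1.90 without SPF replicate 2.

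Sesn3, known as a FOXO target, followed the replicate number. It had 23.8 and 48.2 CPM in GF and 16.8 and 45.6 CPM in SPF, so both libraries numbered 2 lay above both libraries numbered 1. Replicate 2 exceeded replicate 1 by 1.01 in GF and by 1.43 in SPF on the log2 CPM scale, where the trend at its length of 9496 nt, the longest of the 9, was 0.50 and 0.69. The log2 fold change between groups was 0.21 (SE 0.57), and -0.04 with the length trend removed.

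Tsc1 and Tsc2, like Sesn3, were higher in both libraries numbered 2 within their groups. Tsc1, which stabilises the complex, had 55.3 and 81.9 CPM in GF and 29.2 and 72.8 CPM in SPF. Tsc2, which carries the GTPase-activating domain that acts on Rheb, had 57.8 and 97.2 CPM in GF and 37.7 and 82.6 CPM in SPF. In both genes GF replicate 1 lay below SPF replicate 2, so the groups overlapped. The log2 fold changes were 0.43 (SE 0.48) for Tsc1 and 0.36 (SE 0.46) for Tsc2, with quasi-likelihood adjusted p = 0.86 and 0.87. Without SPF replicate 1 the values were -0.08 and -0.09.

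Reads of Tsc2 may be shared with a neighbour. In GENCODE M21 it lies on the minus strand of chromosome 17 from 24595816 to 24632630, and Pkd1, the gene of polycystin-1 on the opposite strand, overlaps 693 of its exonic bases (10.9%). The library kit does not mark strand. Pkd1 itself had 85.3 and 241 CPM in GF and 27.8 and 203 CPM in SPF, so it differed between replicates in the same direction as Tsc2 and by more. Any part of shared reads in the Tsc2 values was not tested. The antisense gene Rptoros shares 84 bases (1.27%) with exons of Rptor, and had 6 and 15 counts in GF and 3 and 15 in SPF. No other member had exonic overlap with another gene.

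Rheb, the activator of mTORC1, was the one member of the core with lower mean values in GF, at 63.5 and 55.9 CPM in GF and 96.7 and 62.1 CPM in SPF. SPF replicate 1 stood above the other libraries, and GF replicate 1 lay slightly above SPF replicate 2. The log2 fold change was -0.41 (SE 0.28, quasi-likelihood adjusted p = 0.86), but -0.06 without SPF replicate 1. Rheb is short, at 1784 nt, and its value was -0.22 (SE 0.16) with the length trend removed.

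Mtor and Rptor differed between replicates and between groups in the same direction. Mtor, the kinase, had 42.7 and 77.8 CPM in GF and 25.0 and 60.4 CPM in SPF. Rptor, the scaffold that recruits substrates, had 155 and 209 CPM in GF and 92.4 and 163 CPM in SPF. For both, GF was higher within each replicate number, and GF replicate 1 lay below SPF replicate 2. Tsc1, Tsc2, Sesn2 and Sesn3 shared this pattern, Ddit4 was also higher in GF within each number, and Rheb and Sesn1 were lower. With the length trend removed, the log2 difference of GF replicate 2 minus SPF replicate 2 was 0.0 for Tsc1 and -0.13 for Sesn3. Log2 fold changes were 0.50 (SE 0.51) for Mtor and 0.51 (SE 0.34) for Rptor, with quasi-likelihood adjusted p = 0.86 each, and 0.26 and 0.33 with the length trend removed. Leaving out SPF replicate 1 gave -0.002 for Mtor and 0.16 for Rptor, and leaving out GF replicate 2 gave -0.004 and 0.28.

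**Figure D2:**
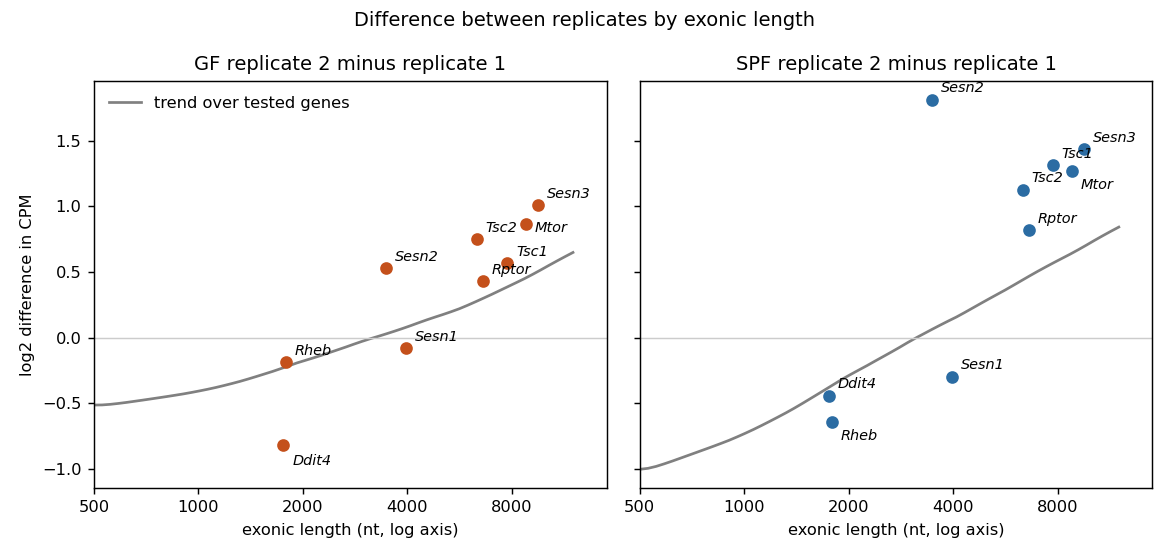
Log2 difference in CPM between replicate 2 and replicate 1 of each member against its exonic length (log axis), in GF (left) and SPF (right), with a grey line for the trend over tested genes. Mtor, Rptor, Tsc1, Tsc2 and Sesn3, at 6338 to 9496 nt, lie above 0 and above the trend in both groups, while Ddit4 and Rheb, at 1755 and 1784 nt, lie below 0.

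Over the 9 members, the median log2 difference of replicate 2 minus 1 was 0.53 in GF and 1.13 in SPF, and 0.18 and 0.63 with the trend removed, against medians over all tested genes between -0.01 and 0.01 in the same comparisons. After removal, Tsc1 differed by 0.18 in GF and 0.75 in SPF, and Mtor by 0.41 and 0.63. With the trend removed, the groups did not overlap for 3 members: Ddit4 and Rptor were higher in both GF libraries, beside 20.2% of tested genes, and Rheb was lower, beside 20%.

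How many of these genes passed depended on which SPF library was kept. Without SPF replicate 2, which leaves SPF replicate 1 alone in its group, 7 of the 9 members passed the quasi-likelihood test, beside 11.5% of tested genes called, 6.77% higher in GF. These were Mtor, Rptor, Tsc1, Tsc2, Ddit4, Sesn2 and Sesn3, all higher in GF, with log2 fold changes from 0.96 for Ddit4 to 1.90 for Sesn2. Without SPF replicate 1, Ddit4 alone passed, beside 0.147% of tested genes, and Mtor, Tsc1, Tsc2 and Sesn3 had values from -0.34 to -0.002. Without either GF library no member passed, beside 0% of tested genes. The median log2 fold change of the 9 was 0.43 with all libraries and -0.035 without SPF replicate 1. It was -0.004 without GF replicate 2, 0.69 without GF replicate 1 and 1.03 without SPF replicate 2, so its sign depended on the library left out. Leaving out 1 library also makes the replicate numbers unequal between the groups. Within replicate numbers, the members' median log2 difference of GF minus SPF was 0.75 for replicate 1 and 0.23 for replicate 2. In each fit with 1 library left out, the lone library is assumed to vary like the group that keeps both.

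**Figure D3:**
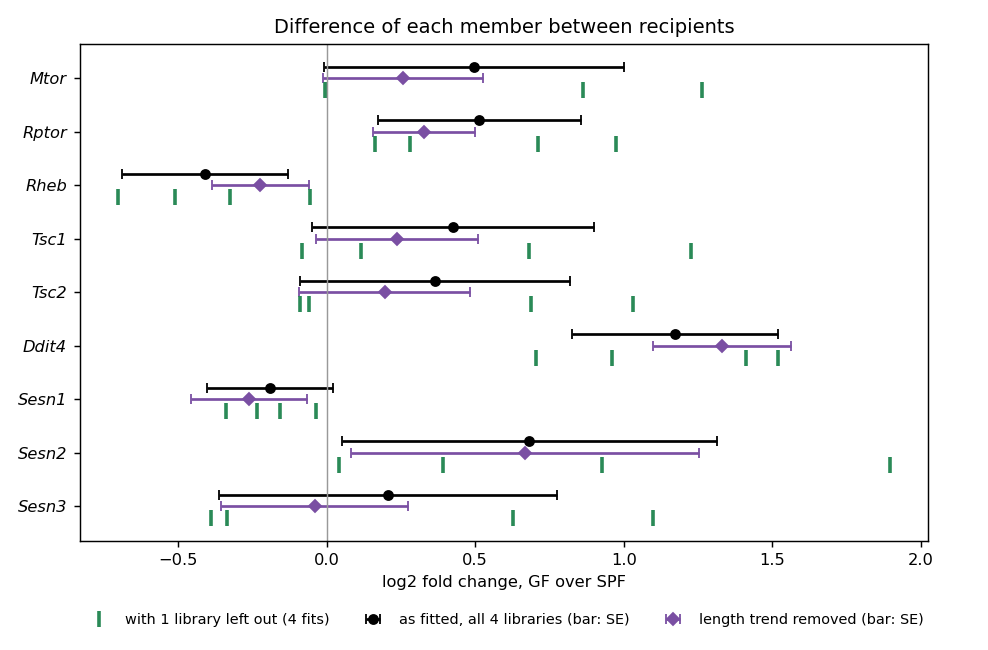
Log2 fold change of each member, GF over SPF, with all 4 libraries (black, bar for SE), with the length trend removed (purple, bar for SE) and with each library left out in turn (green ticks). Ddit4 lies right of 0 in all 6 fits, from 0.70 to 1.52, while the ticks of Mtor, Tsc1, Tsc2 and Sesn3 lie on both sides of 0.

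Levels of the 9 genes were compared per length, as RPKM, the CPM divided by exonic length in kilobases. Averaged over the 4 libraries the order was Ddit4 (44.6 RPKM), Rheb (39.0), Sesn1 (26.3), Rptor (23.5), Tsc2 (10.9), Tsc1 (7.73), Mtor (5.86), Sesn3 (3.54) and Sesn2 (2.59), all in RPKM. The ranges over libraries overlapped between neighbours in this order, except that the lowest value of Rheb, 31.3 RPKM, lay just above the highest of Sesn1, 30.9 RPKM. Ddit4 was first in GF at 61.8 ± 24.1 RPKM and the third in SPF at 27.4 ± 5.89 RPKM, where Rheb was first at 44.5 ± 13.7 RPKM (SD, n = 2 each). The 5 least abundant genes kept their order in both groups. Sesn2 aside, shorter genes tended to stand higher in the order of levels, with Ddit4 at 1755 nt and Sesn3 at 9496 nt. Differences between libraries followed length, and a part of length in the order of levels was not tested. The kinase Mtor had fewer transcripts per length than its scaffold Rptor in each library, at 4.86 against 23.6 RPKM in GF replicate 1 and 2.84 against 14.0 RPKM in SPF replicate 1.

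Genes with the most similar profiles were found by the distance between log2 CPM values centred per gene over the 4 libraries. With 4 libraries many genes come close, and these are descriptions. For Ddit4 the nearest were 5031414D18Rik (distance 0.09), Ccdc40 (0.12) and the spindle assembly gene Tpx2 (0.21), all at 5.4 CPM or less. Nearest to Mtor were Hectd2, Sec16a and Taok2, at distances of 0.03 to 0.06. Nearest to Rheb, at 0.02 each, were Nars2, Ddit3 and Yipf4, of which Ddit3 encodes the stress factor CHOP.

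In the quasi-likelihood fit without covariates, the wider mTOR machinery gave 0 calls in each of the 6 lists around it. The same fit called 0% of all tested genes. Of 11 genes listed as other subunits of mTORC1, mTORC2 and the TSC complex, 9 had higher and 2 lower mean values in GF. This list also holds Rhebl1, a relative of Rheb that is not a subunit of these complexes. The median log2 fold change of the 11 was 0.19, and 0.10 with the length trend removed. It ran from 0.053 (without GF replicate 1) to 0.43 (without SPF replicate 2) with 1 library left out. Over all tested genes 49.7% were higher and the median was -0.004. The mTORC2 subunit gene Prr5l had 4.37 and 6.30 CPM in GF and 1.40 and 2.69 CPM in SPF, a log2 fold change of 1.37 (SE 0.48, unadjusted p = 0.033, quasi-likelihood adjusted p = 0.86). Its relative Prr5 had 7.58 and 6.51 CPM in GF and 5.15 and 2.76 CPM in SPF. In both genes the GF libraries lay above the SPF libraries. Mapkap1, the mTORC2 scaffold SIN1, had 39.6 and 39.3 CPM in GF and 48.1 and 48.4 CPM in SPF, with both GF libraries lower. Rictor, which defines mTORC2, followed the replicate number at 194 and 295 CPM in GF and 126 and 256 CPM in SPF.

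In the amino acid branch, of 13 Rag GTPase, Ragulator and folliculin genes, 4 were higher and 9 lower in GF, with a median of -0.30, but -0.02 with the length trend removed (median length 2258 nt). Without SPF replicate 1 the median was 0.087, without GF replicate 2 it was -0.12, and without SPF replicate 2 it was -0.55. Lamtor2, a Ragulator subunit of 734 nt, had 40.9 and 34.1 CPM in GF and 83.6 and 42.7 CPM in SPF. Its log2 fold change was -0.75 (SE 0.36), and -0.29 with the length trend removed. The lysosomal arginine sensor Slc38a9, at 8910 nt, had 67.6 and 69.6 CPM in GF and 40.1 and 57.9 CPM in SPF. Of 14 genes listed under GATOR1, GATOR2 and KICSTOR, 10 were higher and 4 lower, with a median of 0.30, and 0.26 with the trend removed. The list also holds Gatsl2 and Gatsl3, which are not subunits of these complexes and had log2 fold changes of 0.64 and 0.42. The list median was 0.10 without SPF replicate 1 and 0.17 without GF replicate 2. In this list the GATOR1 gene Nprl3 had 40.6 and 31.0 CPM in GF and 25.7 and 28.0 CPM in SPF, with both GF libraries higher.

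Among upstream kinases, of 16 PI3K and AKT genes, 12 were higher and 4 lower in GF, with a median of 0.24, and 0.06 with the length trend removed. It was -0.025 without SPF replicate 1, 0.093 without GF replicate 2 and 0.61 without SPF replicate 2. Akt1, the kinase that inactivates TSC2, was the one gene of this list with both GF libraries higher, beside 16.8% of tested genes. It had 255 and 226 CPM in GF and 181 and 178 CPM in SPF (log2 fold change 0.43, SE 0.20, quasi-likelihood adjusted p = 0.86). Of 9 tested AMPK and LKB1 genes, which restrain mTORC1 when energy is low, 7 were higher and 2 lower, with a median of 0.094, between 0.001 (without GF replicate 1) and 0.16 (without GF replicate 2) with 1 library left out. The AMPK kinase gene Camkk2 had 37.0 and 37.4 CPM in GF and 32.3 and 30.2 CPM in SPF.

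Downstream of mTORC1, 11 of 19 tested substrates and outputs were higher and 8 lower in GF, with a median of 0.13, and 0.001 with the length trend removed. It was 0.035 without SPF replicate 1, 0.016 without GF replicate 2 and 0.24 without SPF replicate 2. Eef2k, the kinase that slows translation elongation and is inhibited downstream of mTORC1, had 31.4 and 33.2 CPM in GF and 18.6 and 20.6 CPM in SPF. Its log2 fold change was 0.72 (SE 0.22, unadjusted p = 0.022, quasi-likelihood adjusted p = 0.86), and 0.49 with the trend removed. Eif4e, the cap-binding protein released by mTORC1, had 61.4 and 56.8 CPM in GF and 106 and 74.4 CPM in SPF, a log2 fold change of -0.61 (SE 0.25). The gene of its repressor Eif4ebp2 had 130 and 159 CPM in GF and 70.6 and 126 CPM in SPF. The autophagy kinase gene Ulk1 had 63.1 and 72.1 CPM in GF and 46.0 and 55.7 CPM in SPF. In Eef2k, Eif4ebp2 and Ulk1 both GF libraries were higher, and in Eif4e both were lower. Both GF libraries were higher for 5 of the 19 and lower for 2, beside 16.8% and 16.4% of tested genes.

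**Figure D4:**
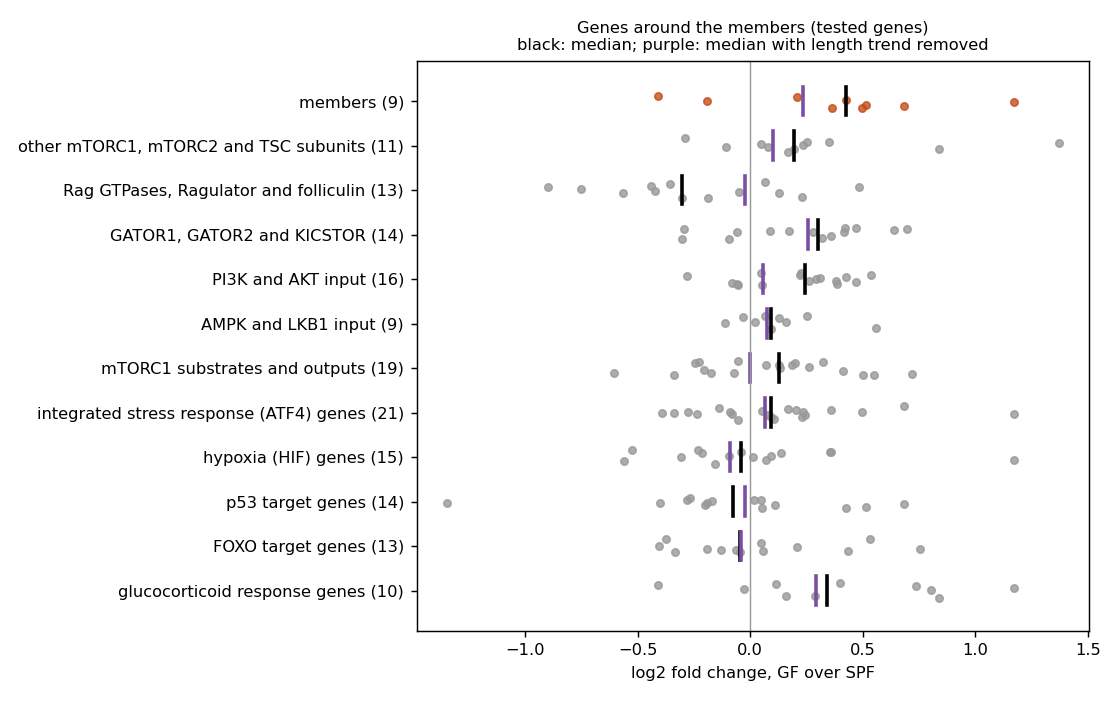
Log2 fold change, GF over SPF, of each tested gene in the member list (orange) and the 11 lists around it (grey), with black bars for list medians and purple bars for medians with the length trend removed. The members have a median of 0.43, or 0.24 with the trend removed, and the point at 1.17 is Ddit4, which stands in 3 of the other lists as well.

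Ddit4 and the sestrins are induced by several stress pathways, and genes of each were read beside them. The lists hold some of the members themselves: Ddit4 and Sesn2 stand among the integrated stress response genes, Ddit4 among the hypoxia genes, Sesn1 and Sesn2 among the p53 targets, and Sesn1 and Sesn3 among the FOXO targets. Of 21 integrated stress response genes, 13 were higher and 8 lower in GF, and their median was 0.09. The stress factor Atf4 had 253 and 272 CPM in GF and 236 and 260 CPM in SPF, with overlapping groups, and Ddit3 had 21.2 and 18.6 CPM in GF and 31.9 and 20.4 CPM in SPF. Of 15 hypoxia genes, 7 were higher and 8 lower, and their median was -0.04. Of these P4ha1, a collagen prolyl hydroxylase subunit, had 27.8 and 33.0 CPM in GF and 42.0 and 45.5 CPM in SPF, and Ndrg1 had 47.7 and 54.2 CPM in GF and 37.6 and 41.9 CPM in SPF. Of 14 p53 targets, 7 were higher and 7 lower (median -0.08), and of 13 FOXO targets, 6 were higher and 7 lower (median -0.05). With 1 library left out, the medians ran from 0.012 to 0.15 for the integrated stress response, -0.08 to 0.042 for hypoxia, -0.20 to 0.006 for p53 and -0.12 to -0.035 for FOXO, and those of hypoxia and p53 were above 0 without SPF replicate 1. Both GF libraries were higher for 3 and lower for 3 of the 21 integrated stress response genes, higher for 4 and lower for 4 of the 15 hypoxia genes, higher for 0 and lower for 4 of the 14 p53 targets, and higher for 1 and lower for 3 of the 13 FOXO targets, beside 16.8% and 16.4% of tested genes. Btg2, an antiproliferative p53 target, had 341 and 363 CPM in GF and 459 and 389 CPM in SPF, and Cdkn1b, the cell cycle inhibitor p27, had 240 and 239 CPM in GF and 331 and 274 CPM in SPF. Foxo1 itself had 247 and 292 CPM in GF and 198 and 201 CPM in SPF, with both GF libraries higher (log2 fold change 0.43, quasi-likelihood adjusted p = 0.86). Foxo1 is long, at 8665 nt, and its log2 fold change was 0.12 with the length trend removed. No gene of these lists passed the quasi-likelihood test with all 4 libraries and no covariates, beside 0% of all tested genes.

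Of 10 tested glucocorticoid response genes, 8 were higher and 2 lower in GF. Their median log2 fold change was 0.34, and 0.29 with the length trend removed. It was 0.15 without SPF replicate 1 and 0.16 without GF replicate 2. Both GF libraries lay above both SPF libraries for 6 of the 10, of which Ddit4 is one, and below for 0, beside 16.8% and 16.4% of tested genes. Tsc22d3, which encodes the glucocorticoid-induced leucine zipper GILZ, had 339 and 295 CPM in GF and 231 and 250 CPM in SPF. The clock gene Per1 had 50.5 and 75.1 CPM in GF and 25.9 and 46.0 CPM in SPF, a log2 fold change of 0.80 (SE 0.36). Rgs2, a regulator of G protein signalling, had 59.7 and 105 CPM in GF and 41.2 and 57.4 CPM in SPF. Fkbp5 and Errfi1, chosen after their values were seen, completed the 6, with 151 and 161 CPM in GF against 120 and 135 CPM in SPF for Fkbp5, and 30.9 and 33.9 CPM in GF against 27.8 and 30.2 CPM in SPF for Errfi1. Of the 2 lower genes, Sgk1, also chosen so, had 332 and 353 CPM in GF and 350 and 349 CPM in SPF. Values of the other lower gene are not reported here. Dusp1, also chosen so, had 32.3 and 115 CPM in GF and 6.64 and 75.2 CPM in SPF. It followed the replicate number and was higher in GF within each number. The receptor gene Nr3c1, chosen so as well, had 155 and 205 CPM in GF and 128 and 204 CPM in SPF. None passed the quasi-likelihood test over all genes without covariates, beside 0% of all tested genes.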

How the data were processed

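Raw counts of reads per gene symbol, as deposited by the authors, came in 1 table with a column for each library. The submitters' processing notes name mm10 as the build, and CASAVA, TopHat, Picard, Subread with featureCounts, and edgeR as tools, with no settings. Per the labels' protocols, libraries were made with Illumina's TruSeq RNA kit (unstranded). GF and SPF counts were compared in R 4.3.3 using edgeR 4.0.16 (TMM scaling, filterByExpr, quasi-likelihood F test without covariates, two-sided, Benjamini-Hochberg over 11271 genes, threshold 0.05), and SE is the log2 fold change over the square root of F. Alternatives used DESeq2 1.42.0, limma 3.58.1, other scalings and filters, each library left out, the replicate number as a block, and removal of a length trend (lowess, span 0.3, of log2 CPM with prior count 2 against exonic length). Lengths and positions came from GENCODE M21 (GRCm38, the assembly of mm10), which matched 99.3% of tested genes. Scripts were tested on simulated data. The members, the 11 gene lists, the 7 marker lists and the tests were chosen with earlier results of these data known. Genes named are the members, up to 4 genes per list by smallest p and its most abundant gene, the most abundant marker of each cell type, and the 3 nearest profiles; some are not reported here. Outside this rule, Cd8a, Klra4, Klra8, Cd4, Cd40lg, Eomes, Ncr1, Lyz2, Fkbp5, Errfi1, Sgk1, Dusp1, Nr3c1, Pkd1 and Rptoros were named after values were seen. So were Foxo3, Ppp1r15a, Foxk1, Gatsl2, Gatsl3 and Rhebl1. Figures were drawn with matplotlib 3.10.9.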

Additional observations from a re-analysis of the deposited data

How the results depend on the processing

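The count of genes called over the whole table was 0 in the quasi-likelihood fit and stayed at 0 with other scalings, other filters, limma-voom and the length trend removed. It was 9 with DESeq2, 9 with the edgeR exact test, and 0 to 1327 with 1 library left out. The count of members called was 0 in the same settings and with DESeq2 and the exact test, and 0 to 7 with 1 library left out. Both groups use replicate numbers 1 and 2, which no label ties to an animal or day, so the libraries were treated as unpaired. The replicate 2 minus 1 differences in GF and SPF correlated at 0.71 over tested genes. The common dispersion, edgeR's measure of spread between libraries, was 0.0763 without the replicate number and 0.0171 with it as a block. With the replicate number as a block, 1206 genes passed (10.7%), 3 of them members: Ddit4 (1.13, adjusted p = 0.000377), Rptor (0.55, 0.027) and Mtor (0.56, 0.035), given as log2 fold change and quasi-likelihood adjusted p. With the block and the length trend removed together, 334 passed (2.96%), of which 1 was a member, Ddit4 (1.30, adjusted p = 0.0081), and genes of the lists passed as follows. Of the pathway lists, under the block alone, the substrates list held 4 (Eef2k, Eif4e, Eif4ebp2, Foxk1), the glucocorticoid list 4 (Ddit4, Per1, Rgs2, Dusp1), the integrated stress response list 2 (Ddit4, Ppp1r15a), the hypoxia list 2 (Ddit4, P4ha1), the FOXO list 1 (Foxo3), the other subunits 1 (Prr5l), the Rag list 1 (Lamtor2), the PI3K list 1 (Pik3r5) and the GATOR list 1, and the AMPK and p53 lists 0; the dendritic, NK and CD4 marker lists held 1 each. With the length trend removed as well, the same 4 glucocorticoid genes, Eif4e and the dendritic marker gene Itgax passed, and no other gene of the pathway lists.

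Ddit4, Rptor, Rheb, Sesn1 and Sesn2 kept their direction in all 14 alternatives. Sesn3 had -0.041 with the length trend removed and -0.019 with the block as well. With 1 library left out, log2 fold changes ran from -0.004 to 1.26 for Mtor, -0.084 to 1.23 for Tsc1, -0.091 to 1.03 for Tsc2 and -0.39 to 1.10 for Sesn3. The values of these genes fell without SPF replicate 1 or GF replicate 2, and rose without SPF replicate 2 or GF replicate 1. Each of these fits leaves 1 library in a group and makes the replicate numbers unequal between the groups. The cause of the reversals was not tested. Sesn2 had 34 counts in SPF replicate 1, the fewest of any member, and the largest SE of the 9 (0.63). RPKM levels computed from the longest transcript moved by less than the spread between libraries for all 9 members.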
